A study of Drosophila melanogaster with 32 samples.

Results

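The 5 genes described here were all but silent in wild-type flies of either sex and had reads in both sexes of at least 1 mutant stock. They are CG32379, mthl8, AANATL4, Cp15 and the non-coding RNA gene lncRNA:CR45670. Members were chosen on CPM, the count of a gene per 1000000 gene counts of its library. A member had a mean below 0.1 CPM in Oregon-R females and in Oregon-R males, and a mean of at least 1 CPM in females and in males of the same mutant stock. Genes of the X, the Y and chromosome 4, and symbols that start with Cpr, Obp, Or, Gr or Ir, were left out. Of 17490 genes in the table, 2589 were under the silent limit, 8 passed both limits and 5 remained after the exclusions. The 3 excluded genes were the pseudogene CR41509 on the Y and, on the X, the pseudogene CR44383 and sordd2.

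Whole adult flies were sequenced in 4 samples for each sex of Oregon-R, Pof[D119], PoX2[Df1.688] and Zhr[1], 32 libraries in all, and the 3 mutant stocks are called POF, PoX and Zhr below. Each sample pooled 10 flies, 3 of them aged 6-8 h, 4 aged 14-16 h and 3 aged 22-24 h after hatching, and the females were virgins. The POF stock carries a deletion of the Pof coding region, the PoX stock lacks a short array of satellite repeats downstream of CG1840 on the X, and the Zhr stock lacks the large pericentromeric block of the same satellite on the X. Backgrounds of the stocks were not made alike, so a difference between a mutant stock and Oregon-R belongs to the stock, and allele and background cannot be told apart. Whole flies mix all tissues, so that fewer cells of a type and less RNA per cell cannot be told apart either.

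Summed gene counts per library ran from 26816098 to 37992591 in Oregon-R, from 17474274 to 28044163 in POF, from 12186486 to 19640742 in PoX and from 13347854 to 18507632 in Zhr. Oregon-R was thus the stock sequenced deepest, and a gene had to be missing from more reads there than in PoX or Zhr. Pof, the target of the deletion, fell from a mean of 321 CPM in Oregon-R males to 11.5 CPM in POF males, and from 14.0 to 8.05 CPM in females. Its level in PoX males was 269 CPM and in Zhr males 262 CPM, so that in males the targeted gene was low in the stock labelled for its deletion. The female values of Pof lay closer together and make a weaker check of the label. Testis markers, 10 genes, summed to between 1448 and 2152 CPM in male libraries and to at most 3.36 CPM in female libraries. Follicle cell markers, 10 genes, summed to 8.06 to 343 CPM in Oregon-R males, where replicate 2 stood apart with 156 CPM of the yolk protein gene Yp2 beside 0.974 to 1.66 CPM in the other replicates. Larval fat body markers, 6 genes, summed to 143 to 1338 CPM in Oregon-R males, 243 to 2258 CPM in POF males, 2916 to 4222 CPM in PoX males and 3104 to 5316 CPM in Zhr males. All 6 of them rose in PoX males, 5 rose and Lsp1alpha fell in Zhr males, 4 rose in POF females, 2 rose in PoX females, 2 rose and Lsp1alpha fell in Zhr females, and none was called in POF males. Heat shock genes rose in PoX males in 5 of 5 tested, from a sum of 187 to 222 CPM in Oregon-R males to 524 to 607 CPM. In POF and Zhr males 1 of 5 rose each, and in females 1 of 5 in POF and 2 of 5 in PoX and in Zhr. Their sum was 126 to 158 CPM in Oregon-R females and 172 to 233 CPM in POF females. It was 181 to 271 CPM in PoX females and 291 to 485 CPM in Zhr females. In Zhr females 4 of 4 flight muscle markers and 5 of 5 eye markers fell and 4 of 5 female germline markers rose. Eye markers also fell in 3 of 5 in POF females and in PoX females, 2 of 5 in POF males and 1 of 5 in PoX males. Female germline markers rose in 2 of 5 in PoX females. Flight muscle markers fell in 1 of 4 in PoX females and in Zhr males. They rose in 2 of 4 in POF females and in 1 of 4 in POF males and in PoX males. Accessory gland markers rose in 5, 3 and 3 of 7 tested in POF, PoX and Zhr males. Beside these counts, 8.08% of all genes tested rose in POF females, 8.9% in PoX females and 20.3% in Zhr females. In males 13.6%, 11.5% and 12.6% rose in the same order. In Zhr 20.8% of all genes fell in females and 10.4% in males. The shares that fell were 8.4% and 11.6% in POF and 10.5% and 9.4% in PoX, for females and males. The part of these lists in the levels of the 5 genes was not tested.

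The members come from unrelated gene families. CG32379 is a gene of the metallocarboxypeptidase type, enzymes that remove amino acids from the end of a protein chain, and lies in a row of like genes. mthl8 belongs to the methuselah-like family of G-protein-coupled receptors, and AANATL4 is named after the arylalkylamine N-acetyltransferases, which acetylate dopamine and related amines in insects. Cp15 encodes a protein of the chorion, the outer eggshell, which follicle cells of the ovary make late in egg formation from a gene cluster that is amplified for it. No protein is known from lncRNA:CR45670. All 5 lie on the autosomes, 4 of them on 3L and AANATL4 on 2R, in the coordinates of genome release 6 that the count table gives.

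By the rule CG32379 was shared by all 3 mutant stocks, lncRNA:CR45670 by POF and Zhr, and the other 3 were assigned to a single stock each, AANATL4 to POF, mthl8 to PoX and Cp15 to Zhr. POF and Zhr had 3 members each and PoX had 2. The limits cut through a continuum for several of them, as the values below show. Since Oregon-R and mutant levels chose these genes, the levels in this and the next paragraphs are given as a description, with no test against Oregon-R.

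**Figure D1:**
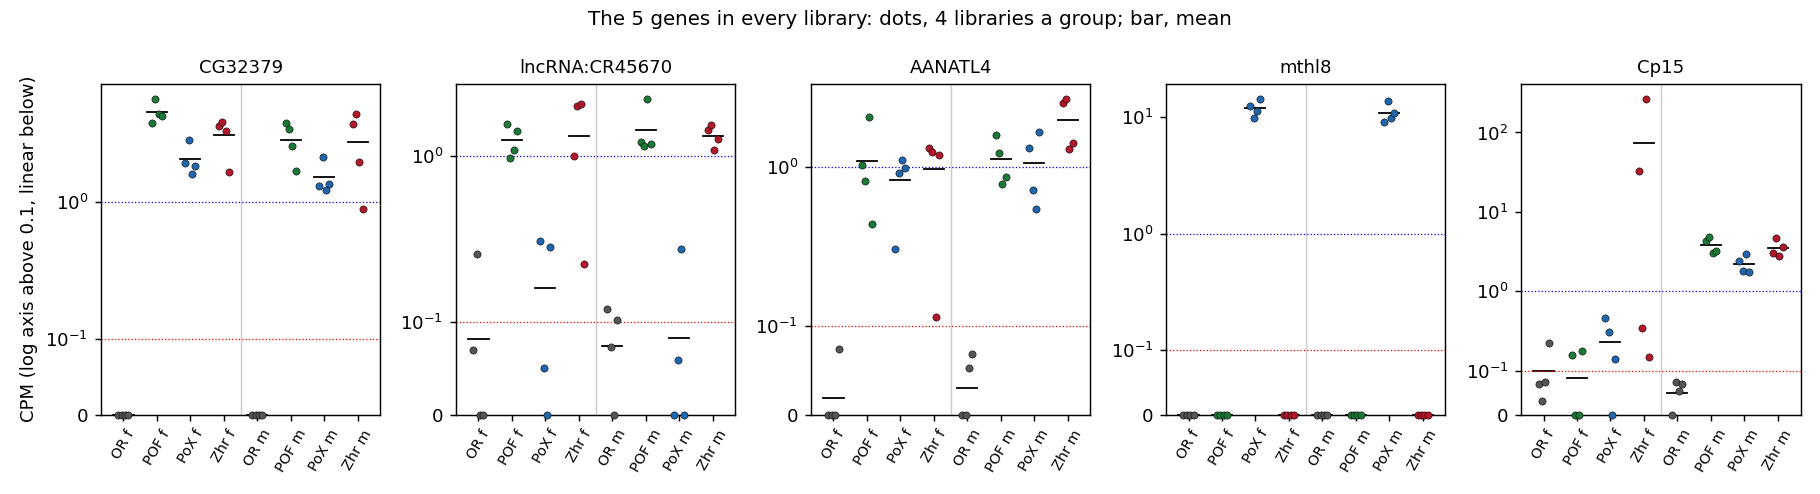
CPM of the 5 genes in every library (log axis above 0.1 CPM, linear below), grouped by stock and sex (f, female, m, male), with the mean of 4 libraries as a bar and the limits of 0.1 and 1 CPM as dotted lines. CG32379 was at 0 in all 8 Oregon-R libraries, mthl8 had reads in PoX libraries and nowhere else, and Cp15 was between 1.75 and 4.86 CPM in every library of mutant males.

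CG32379 (FBgn0052379) spans 3L:7396355-7398208 on the plus strand, with 2 exons of 1238 bp in all. It had no counts in any of the 8 Oregon-R libraries, where 3 counts over the 4 libraries of a sex would be 0.0263 CPM in females and 0.0236 CPM in males. In POF females the 4 libraries held 3.79, 5.61, 4.41 and 4.21 CPM, and in POF males 3.78, 3.39, 2.57 and 1.69 CPM. In PoX females the values were 1.91, 2.85, 1.59 and 1.83 CPM, and in PoX males 1.31, 2.14, 1.23 and 1.35 CPM. All 16 of these libraries lay above 1 CPM. In Zhr females CG32379 was at 3.56, 3.82, 3.30 and 1.65 CPM, and in Zhr males at 3.74, 4.38, 1.95 and 0.890 CPM. Replicate 4 was the lowest Zhr library in either sex, and every one of the 24 mutant libraries had reads of this gene while no Oregon-R library did. Against the floor of 3 counts over the wild-type libraries of the same sex, the mean was at least 171-fold higher in POF females (4.50 ± 0.779 CPM, SD, n = 4) and at least 64.0-fold higher in PoX males (1.51 ± 0.425 CPM, n = 4), the highest and the lowest of the 6 groups.

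The level of CG32379 differed between the stocks that share it, a comparison that the rule did not use. In females it was higher in POF than in PoX by 1.22 ± 0.28 on the log2 scale (SE), with an adjusted p of 0.00806 in the two-sided quasi-likelihood test of edgeR, and all POF libraries lay above all PoX libraries. Beside this 1 shared member called, 24.1% of the 11938 genes tested were called between these groups. POF females were also above Zhr females (3.08 ± 0.978 CPM, n = 4), by 0.77 ± 0.27 with an adjusted p of 0.0341, where 46.6% of genes were called and the lowest POF library (3.79 CPM) lay just below the highest Zhr library (3.82 CPM). Without POF-female replicate 2, Zhr-female replicate 3 or Zhr-female replicate 4 that call was lost, with adjusted p values of 0.111, 0.0586 and 0.0813, and with column totals alone the adjusted p was 0.104. PoX and Zhr females differed by -0.45 ± 0.29 (adjusted p of 0.290, 17.8% of genes called). In males no pair of stocks differed past the threshold. POF stood above PoX by 0.90 ± 0.42 (adjusted p of 0.143, and 0.0481 in a fit of these 2 groups alone), with an interval of 0.09 to 1.72 at 95% before adjustment, and PoX stood below Zhr by -0.86 ± 0.43 (adjusted p of 0.188, and 0.0381 without Zhr-male replicate 4). POF and Zhr males differed by 0.04 ± 0.39 (adjusted p of 0.957), an interval of -0.72 to 0.80 that leaves room for a change in either direction. Of all genes tested in males, 20.7%, 18.1% and 24.2% were called in these comparisons.

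The sexes of a stock did not differ past the threshold in CG32379. The log2 difference of females over males was 0.63 ± 0.26 in POF (adjusted p of 0.0608), 0.42 ± 0.29 in PoX (adjusted p of 0.227) and 0.01 ± 0.43 in Zhr (adjusted p of 0.978). In POF all female libraries lay above all male ones (exact permutation p of 0.0286, two-sided, the smallest that 4 against 4 libraries allow). That POF value passed the threshold without POF-female replicate 1 (adjusted p of 0.0435) or POF-male replicate 1 (0.0364), and with column totals alone (0.0428). The difference between the sexes was itself not found to differ between stocks (adjusted p of 0.805 for POF against PoX, 0.339 for POF against Zhr and 0.755 for PoX against Zhr, edgeR over all 32 libraries).

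CG32379 sits between CG8563, which ends 341 bp before it, and CG8562, which starts 76 bp after it, both carboxypeptidase-like genes of the same row. These neighbours were not silent in Oregon-R, and in males they moved in opposite directions. CG8562 was at 31.8, 20.5, 24.4 and 21.5 CPM in Oregon-R females and at 61.8, 87.7, 70.8 and 43.8 CPM in POF females, with no overlap. It rose in POF by 1.55 ± 0.30 on the log2 scale in females (adjusted p of 0.0021, edgeR) and by 0.89 ± 0.20 in males (adjusted p of 0.0036). In Zhr it rose by 1.44 ± 0.30 in females (adjusted p of 0.00147) and by 1.67 ± 0.21 in males (adjusted p of 1.1e-05). In PoX it rose in males, by 1.00 ± 0.21 (adjusted p of 0.00197), and stood 0.85 ± 0.30 above Oregon-R in females, where the adjusted p was 0.0554. That female call depended on the fit, since DESeq2 (adjusted p of 0.02), the 2 groups alone (0.0052) and leaving out Oregon-R female replicate 1 (0.0475) or PoX-female replicate 2 (0.0391) gave it.

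CG8563 went the other way in males. Its level was 3.60 ± 1.05 CPM in Oregon-R males (n = 4), 0.377 ± 0.125 CPM in POF males, 0.780 ± 0.221 CPM in PoX males and 1.07 ± 0.364 CPM in Zhr males, and no mutant male library reached the lowest Oregon-R male library. The log2 changes in males were -3.19 ± 0.32 in POF (adjusted p of 8.35e-07), -2.13 ± 0.31 in PoX (adjusted p of 8.02e-05) and -1.68 ± 0.29 in Zhr (adjusted p of 0.000354). In females CG8563 fell in POF by -1.73 ± 0.41 (adjusted p of 0.00832), while PoX (-0.24 ± 0.38, adjusted p of 0.708) and Zhr (0.48 ± 0.36, adjusted p of 0.307) did not pass the threshold. Further along the row, CG8560, 4123 bp after CG32379, rose in POF by 1.68 ± 0.18 in females (adjusted p of 9.39e-06) and by 0.81 ± 0.13 in males (adjusted p of 0.000176), and was not called in PoX or Zhr. Another gene near CG32379, CG18417, rose in Zhr by 0.54 ± 0.18 in females (adjusted p of 0.023, edgeR) and by 0.55 ± 0.18 in males (adjusted p of 0.0386). CG18417 was not called in PoX or in POF (0.52 ± 0.18 in POF females, adjusted p of 0.0541). The 3 mutant stocks share the Oregon-R libraries in these comparisons.

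**Figure D2:**
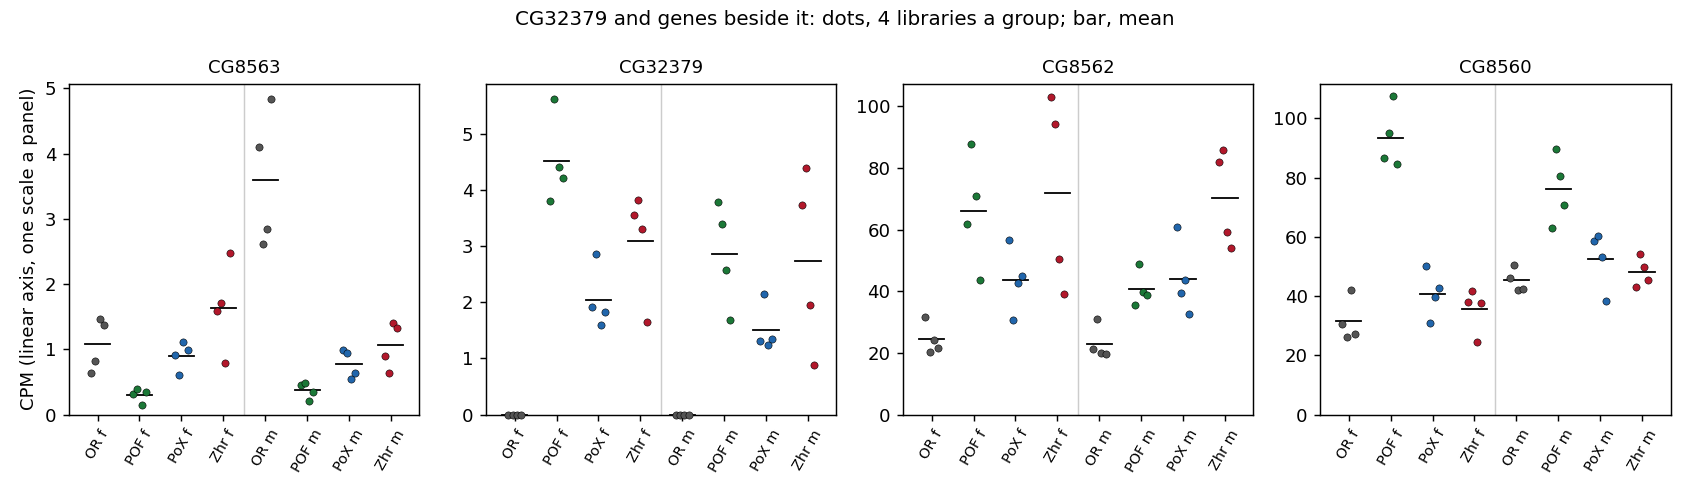
CPM of CG8563, CG32379, CG8562 and CG8560 in every library (linear axes, each panel with its own scale), in the order in which they lie on 3L, with the mean of 4 libraries as a bar. CG32379 was at 0 in Oregon-R, CG8562 had a higher mean in every mutant group, CG8563 was lower in mutant males, and CG8560 was highest in POF.

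mthl8 (FBgn0052475, 3L:22428-26308, plus strand) showed the sharpest split between stocks. It had 0 counts in all 24 libraries of Oregon-R, POF and Zhr. The PoX females held 12.4, 9.78, 11.4 and 14.2 CPM and the PoX males 9.11, 13.7, 9.92 and 10.9 CPM, from 111 to 231 counts a library. Every PoX library had thus at least 111 counts of a gene that no other library showed. Against the floor of 3 counts in Oregon-R the mean was at least 453-fold higher in PoX females and at least 463-fold higher in PoX males. The limit for POF and Zhr lies between 0.0295 and 0.0471 CPM for 3 counts over the libraries of a group. Sexes of PoX did not differ past the threshold (11.9 ± 1.87 CPM in females and 10.9 ± 2.02 CPM in males, n = 4 each, log2 difference 0.10 ± 0.16, adjusted p of 0.603, edgeR).

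mthl8 is the first gene of the left arm of chromosome 3 in the table, with none nearer the arm's start. It has 2 annotated transcripts, with a coding region from 24193 to 26075. Its next neighbour CG43149 starts 27564 bp further on. That gene fell in PoX by -0.83 ± 0.18 in females (adjusted p of 0.00437) and by -0.68 ± 0.22 in males (adjusted p of 0.0339), from 5.34 ± 0.705 to 2.96 ± 0.346 CPM in females (n = 4). The male call was lost without Oregon-R male replicate 3 or 4 or PoX-male replicate 1, 2 or 4, with adjusted p values from 0.0769 to 0.102. It was also lower in the stocks in which mthl8 had no reads, by -1.23 ± 0.18 in POF females and -0.71 ± 0.18 in Zhr females (adjusted p of 0.000178 and 0.00509). Repeats crowd the surroundings of mthl8. Within 5000 bp the repeat table lists 22 intervals, of which 17 are HETRP_DM and the rest are POGO and DNAREP1 elements, and none overlaps the gene. HETRP_DM summed over all its copies was at 57.1 ± 10.04 CPM in PoX females and 53.7 ± 7.62 CPM in Oregon-R females, at 16.9 ± 1.36 CPM in POF females and at 69.0 ± 12.4 CPM in Zhr females, a stock with 0 counts of mthl8 (n = 4 each). In males it was 49.95 ± 4.84, 40.8 ± 8.30, 7.98 ± 1.05 and 43.6 ± 10.9 CPM in the same order. The repeat counts cannot be placed at single copies, so the level at the mthl8 end was not analysed here.

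Of 14 other genes of the mthl family, 2 were under the silent limit in Oregon-R, namely mthl6 and mthl12, and neither reached 1 CPM in any group. Of 11 tested, 4 fell and none rose in PoX females, where 8.9% of all genes rose and 10.5% fell. In PoX males 1 rose and 1 fell, where 11.5% of all genes rose and 9.4% fell. In Zhr females 5 of the 11 fell and 1 rose, where 20.3% of all genes rose and 20.8% fell. In POF males 3 fell and 2 rose (11.6% of all genes fell and 13.6% rose), and in POF females 1 fell and 1 rose (8.4% and 8.08%). In Zhr males none fell and 1 rose (10.4% of all genes fell and 12.6% rose). The falls in PoX females were those of mthl15 (-1.54 ± 0.33), mthl14 (-1.28 ± 0.20), mthl3 (-0.59 ± 0.12) and mthl10 (-0.44 ± 0.11).

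lncRNA:CR45670 (FBgn0267230, 3L:4107143-4107470, minus strand, 328 bp) passed the active limit in POF and Zhr and stayed low in PoX. The POF females held 1.54, 0.974, 1.08 and 1.40 CPM and the POF males 1.20, 1.14, 2.18 and 1.17 CPM. The Zhr females held 0.988, 2.0, 2.05 and 0.225 CPM and the Zhr males 1.42, 1.52, 1.08 and 1.26 CPM. Oregon-R females ranged from 0 to 0.255 CPM and Oregon-R males from 0 to 0.121 CPM, so that Zhr-female replicate 4 was the only library of POF or Zhr that fell within the wild-type range. In PoX the values ran from 0 to 0.306 CPM in females and from 0 to 0.274 CPM in males. The pooled counts of POF were 14.1-fold (95% exact counting interval 7.42 to 30.1) those of Oregon-R in females and 20.8-fold (10.6 to 46.4) in males, after division by the library totals. In Zhr they were 15.9-fold (8.27 to 34.3) and 18.6-fold (9.35 to 42.0). In PoX they were 1.67-fold (0.601 to 4.58) and 1.26-fold (0.331 to 4.18), which does not show a level equal to wild type. All these intervals cover counting error only.

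POF and Zhr were not found to differ in lncRNA:CR45670. The log2 difference of POF over Zhr was 0.11 ± 0.59 in females (adjusted p of 0.894, interval -1.04 to 1.26 at 95%) and 0.13 ± 0.40 in males (adjusted p of 0.855, interval -0.65 to 0.91), so that changes of up to about this size could not be seen. Females and males did not differ past the threshold in POF (-0.26 ± 0.30, adjusted p of 0.495) or in Zhr (-0.12 ± 0.48, adjusted p of 0.835).

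lncRNA:CR45670 lies between Fit1, a fermitin gene of cell adhesion that ends 26 bp before it, and the tyrosine kinase gene Ack, which starts 715 bp after it. The counts were made without regard to strand, so reads that run on from Fit1 or Ack into the interval cannot be told from those of lncRNA:CR45670. Fit1 was at 156 to 176 CPM and Ack at 75.1 to 166 CPM as group means in Oregon-R, POF and Zhr, far above the RNA between them. Ack rose in POF by 0.28 ± 0.07 in females (adjusted p of 0.00814) and 0.27 ± 0.06 in males (adjusted p of 0.00491). The POF calls of Ack were lost with column totals alone (adjusted p of 0.12 in females and 0.0541 in males), and the female call also in a fit of the 2 groups alone (0.0575). With column totals alone the calls in males were lost for Ack in Zhr (0.155) and for Fit1 in POF (0.204) and Zhr (0.0998). Those of Fit1 were lost with the 2 groups alone too (0.0927 in POF and 0.0607 in Zhr), and in POF also with no filter (0.0818). In Zhr Ack rose in males by 0.21 ± 0.06 (adjusted p of 0.0254), and in females Ack was at 0.07 ± 0.07 (adjusted p of 0.426). Fit1 rose in males of POF (0.17 ± 0.06, adjusted p of 0.0489) and of Zhr (0.20 ± 0.06, adjusted p of 0.0287) and was not called in females (-0.06 ± 0.06 and -0.15 ± 0.06, adjusted p of 0.543 and 0.0631). The Zhr-male call of Ack was lost without Oregon-R male replicate 3 or Zhr-male replicate 2 or 4 (adjusted p of 0.051 to 0.0655). The calls of Fit1 were lost in POF males without any library other than POF-male replicate 2 (adjusted p of 0.0759 to 0.157), and in Zhr males without Oregon-R male replicate 1 or 4 or Zhr-male replicate 1, 2 or 3 (0.0542 to 0.0975). In Zhr females the Fit1 change passed without Oregon-R female replicate 1 (0.0424) or Zhr-female replicate 4 (0.0438). PoX, in which lncRNA:CR45670 stayed low, had Ack lower by -0.26 ± 0.06 in males (adjusted p of 0.00804) and at -0.17 ± 0.07 in females (adjusted p of 0.0744).

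AANATL4 (FBgn0034429, 2R:19289109-19289852, plus strand, 1 exon of 744 bp) was assigned to POF by the rule, and yet it had reads in every library of all 3 mutant stocks. The POF females held 1.03, 0.818, 2.08 and 0.438 CPM and the POF males 1.6, 1.22, 0.784 and 0.866 CPM. The PoX females held 0.306, 0.916, 1.11 and 0.987 CPM and the PoX males 1.31, 0.714, 0.547 and 1.67 CPM, and their female mean of 0.830 CPM kept PoX under the limit. The Zhr females held 1.32, 1.25, 0.114 and 1.20 CPM and the Zhr males 2.55, 2.67, 1.30 and 1.41 CPM, and again a female mean of 0.971 CPM was just below 1 CPM. In Oregon-R AANATL4 had 2 counts in 1 female library and 2 counts in each of 2 male libraries, at most 0.0746 CPM. The lowest mutant library, Zhr-female replicate 3 with 0.114 CPM from 2 counts, was above the highest Oregon-R library by a margin that is within counting error. The assignment to POF alone thus rested on differences between stocks that were smaller than the spread between libraries. In POF, where the sexes could be compared, the log2 difference of females over males was -0.03 ± 0.45 (adjusted p of 0.959).

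AANATL4 lies in a group of related genes. AANATL6 ends 113 bp before it and reached at most 0.302 CPM as a group mean, in Zhr males, and AANATL5 reached at most 0.113 CPM. Both were too low to be tested, and neither crossed the active limit. On the other side Fkbp12, which encodes an FK506-binding protein and starts 256 bp after AANATL4, was at 184 ± 21.4 CPM in Oregon-R females and 132 ± 26.4 CPM in POF females (n = 4). It fell in POF by -0.37 ± 0.11 in females (adjusted p of 0.0333) and by -0.30 ± 0.07 in males (adjusted p of 0.00566). The female call was lost without Oregon-R female replicate 1, 3 or 4 or POF-female replicate 1, 2 or 4 (adjusted p of 0.0602 to 0.108), and the male call was kept without any single library. CG11906, the nearest tested gene before AANATL4, was at 0.03 ± 0.15 and 0.04 ± 0.11 in POF females and males and did not pass. Of the AANATL genes elsewhere, AANATL2 on 2L was the one that rose in all 3 stocks. Its mean rose from 1.52 to 13.2 CPM in POF females, to 6.07 CPM in PoX females and to 12.1 CPM in Zhr females, changes of 3.23 ± 0.24, 2.02 ± 0.24 and 2.88 ± 0.24 on the log2 scale (highest adjusted p 3.43e-05, edgeR). In males the changes of AANATL2 were 2.65 ± 0.26, 2.0 ± 0.28 and 3.17 ± 0.27 (highest adjusted p 5.03e-05). AANATL7 rose in POF males by 0.70 ± 0.10, and AANATL3 was not called in any of the 6 comparisons.

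Cp15 (FBgn0000355, 3L:8728481-8729066, plus strand, 2 exons) joined the list through 2 separate patterns, one in females of Zhr and the other in males of all 3 mutant stocks. In Zhr females the libraries held 32.4, 0.342, 261 and 0.150 CPM, that is 492, 6, 4588 and 2 counts. Replicates 1 and 3 were high, while replicates 2 and 4 lay in or near the Oregon-R female range of 0.0319 to 0.224 CPM. Without these 2 libraries Cp15 was no longer a member and 4 genes remained, a check made after the values had been seen. The mean in Oregon-R females was 0.0998 CPM, just under the limit of 0.1. POF females ranged from 0 to 0.175 CPM and PoX females from 0 to 0.459 CPM.

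In males Cp15 was at 4.29, 4.86, 3.00 and 3.25 CPM in POF, at 2.38, 1.79, 2.94 and 1.75 CPM in PoX and at 3.00, 4.64, 2.76 and 3.56 CPM in Zhr. Oregon-R males held 0, 0.0737, 0.0526 and 0.0691 CPM. The 12 mutant male libraries were all above 1.7 CPM and the 4 Oregon-R male libraries all below 0.08 CPM. The pooled counts were 80.4-fold (95% exact counting interval 36.6 to 220.5) those of Oregon-R males in POF, 46.8-fold (20.9 to 130) in PoX and 73.0-fold (33 to 201) in Zhr. POF and PoX did not count as active for Cp15 because their females were low, so the male level was shared more widely than the rule gives. Of the chorion genes beside Cp15, in the same 12 male libraries, Cp16 was at 0 to 0.381 CPM, Cp18 at 0.159 to 2.03 CPM and Cp19 at 0 to 0.889 CPM. Oregon-R males were at 0.0345 to 0.221, 0.295 to 1.05 and 0 to 0.0691 CPM for these genes. Cp18 in Zhr males was at 0.37 ± 0.53 on the log2 scale (adjusted p of 0.675), and Cp16 and Cp19 were too low in males to be tested. Cp19 in Zhr males was at 0.113, 0.889, 0.054 and 0.148 CPM, of which 3 libraries were above the Oregon-R male range.

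In Zhr females all 4 genes of the cluster were high together in replicates 1 and 3. Cp18 was at 182, 0.342, 568 and 0.524 CPM, Cp19 at 184, 3.25, 379 and 0.375 CPM and Cp16 at 76.1, 0.684, 187 and 0.150 CPM. The nearest neighbours were called in Zhr females, Cp18 with 8.84 ± 1.66 (adjusted p of 0.000742) and Cp19 with 11.11 ± 1.90 (adjusted p of 0.000355). Without replicates 1 and 3 the value of Cp18 was 0.12 (adjusted p of 0.915) and that of Cp19 was 4.89 (adjusted p of 0.0168). The 6 yolk protein and vitelline membrane genes of the follicle cell list summed to 10106 CPM in replicate 1, 6279 CPM in replicate 2, 9042 CPM in replicate 3 and 12681 CPM in replicate 4. Their sum was thus highest in replicate 4, a library with low chorion genes, and lowest in replicate 2. Oregon-R female libraries held 2463 to 7302 CPM of the whole list of 10 genes, POF female libraries 1814 to 6553 CPM and PoX female libraries 4842 to 9824 CPM. The 10 other genes whose symbols are Cp followed by a digit include Cp190 and Cp110 outside the eggshell. Of these 10, 9 rose in Zhr females (20.3% of all genes rose), 5 in PoX females (8.9%) and 0 in POF females (8.08%). In POF females 0 also passed at an unadjusted p below 0.05 in edgeR. Without replicates 1 and 3, a choice made after seeing the data, 6 of the 10 rose in Zhr females, Cp190 among them. Cp18, Cp16 and Cp7Fa were then no longer called (adjusted p of 0.915, 0.0718 and 0.0557, edgeR). The share of all genes called in that fit is not given here. The part of ovary content or stage in the level of Cp15 was not tested.

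Cp15 was the 1 member called between the sexes of Zhr, where 69.2% of 12821 genes were called, by 4.24 ± 1.49 towards females (adjusted p of 0.0255, edgeR), and 30.3% of genes were higher in females and 38.9% in males. The sign was set by replicates 1 and 3 of the females. Without them, a choice made after seeing the Cp15 values, males were higher, by -3.83 on the log2 scale of females over males. That choice kept the low female libraries, at 0.342 and 0.150 CPM, so this value is no test of a sex difference. With all libraries the two-sided p by exact permutation of the CPM was 0.429. Leaving out Zhr-female replicate 3 or any 1 of the Zhr-male libraries also ended the call, with adjusted p values from 0.0504 to 0.257. No member was called by sex in POF, where 55.9% of 13306 genes were (25.1% higher in females and 30.8% higher in males), or in PoX, where 64.5% of 12705 genes were (30.4% and 34%). DESeq2 also called 0 in these stocks, and at an unadjusted p below 0.05 edgeR had 1 member in POF, CG32379, and 0 in PoX. A member had to pass the active limit in both sexes, which leaves out genes active in a single sex, so these counts are not free of the rule.

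**Figure D3:**
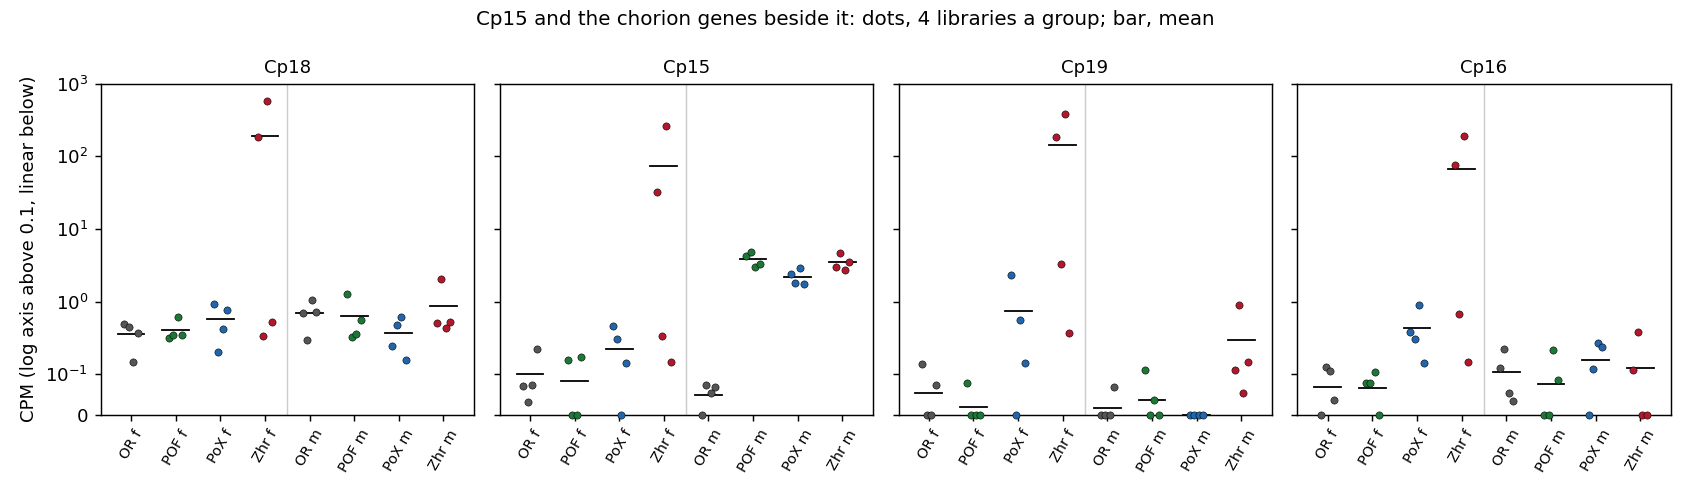
CPM of Cp18, Cp15, Cp19 and Cp16 in every library (log axis above 0.1 CPM, linear below), in the order in which they lie on 3L, with the mean of 4 libraries as a bar. Replicates 1 and 3 of the Zhr females were high for all 4 genes, and mutant males were between 1.75 and 4.86 CPM for Cp15 and at 0 to 2.03 CPM for the other genes.

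**Figure D4:**
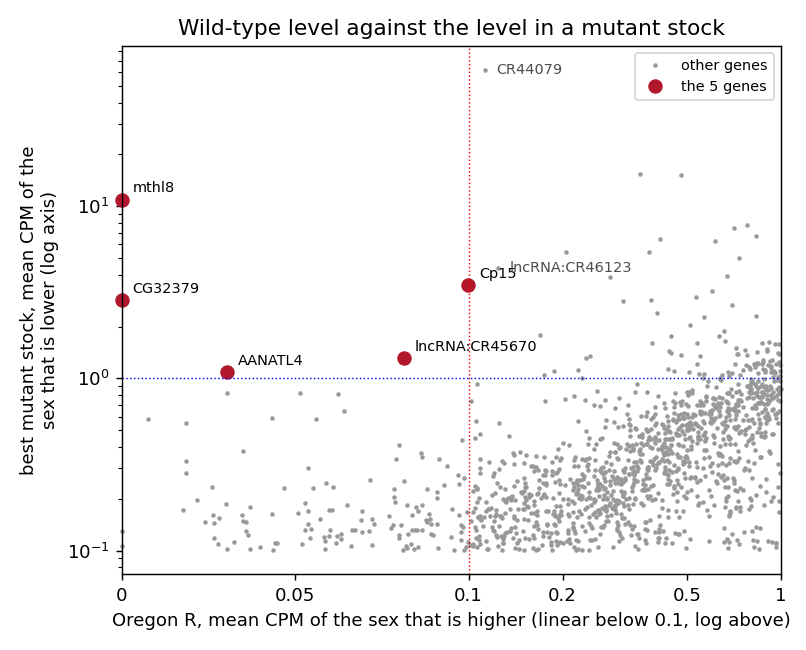
Genes outside the excluded classes as dots, for an Oregon-R level of up to 1 CPM and a mutant level of at least 0.1 CPM, each with its Oregon-R mean in the sex where it was higher (linear below 0.1 CPM, log above) against its mean in the best mutant stock in the sex where it was lower (log axis). Dotted lines are the limits of 0.1 and 1 CPM, and CR44079 and lncRNA:CR46123 lie just right of the silent limit.

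Per kilobase of exon, mthl8 was at 3.5 ± 0.549 CPM per kb in PoX females. In POF females CG32379 was at 3.64 ± 0.629, lncRNA:CR45670 at 3.81 ± 0.816 and AANATL4 at 1.47 ± 0.944 (n = 4 each). These groups were picked gene by gene, and other groups differed. CG32379 had a mean of 2.05 CPM in PoX females beside 4.50 CPM in POF females. Cp15 in POF males, a stock that did not count as active for it, was at 7.47 ± 1.70 CPM per kb. Its mean in Zhr females was far higher, 73.5 CPM, through replicates 1 and 3. Just inside the silent limit were Cp15 (0.0998 CPM) and lncRNA:CR45670 (0.0813 CPM), and just outside it were the pseudogene CR44079 (0.113 CPM in Oregon-R males) and lncRNA:CR46123 (0.125 CPM in Oregon-R males). CR44079 was at 73.7 CPM in Zhr females and 61.9 CPM in Zhr males, at most 0.941 CPM in POF and at most 0.140 CPM in PoX. lncRNA:CR46123 was at 1.86 CPM or more in both sexes of all mutant stocks, up to 9.42 CPM in Zhr females. Just inside the active limit were AANATL4 and lncRNA:CR45670, and just outside it lncRNA:CR44602 (0.824 CPM in Zhr males) and lncRNA:CR44640 (0.823 CPM in POF males).

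The same limits were then applied with each stock in turn as the silent one. Oregon-R had 5 such genes of 2094 silent ones, POF 11, PoX 4 and Zhr 12. With limits of 0.05 and 2 CPM the counts were 2, 6, 3 and 5 in the same order, so the order of the stocks moved with the limits. Genes active in all of the other stocks numbered 1 for Oregon-R (CG32379), 1 for POF (CG42876), 0 for PoX and 2 for Zhr (CG13962 and CG31041). mthl8 was in the sets of Oregon-R, POF and Zhr. The reverse pattern, reads in Oregon-R and silence in all 3 mutant stocks, was held by CG30025, CR42653 and Cyp12d1-d, the last a cytochrome P450 gene with 2.80 CPM in Oregon-R females, 2.65 CPM in Oregon-R males and 0 counts in every mutant group.

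Among the nearest tested genes on either side, which the rule did not use, those called against Oregon-R were 4 of 6 in POF females, 2 up and 2 down, where 16.5% of all genes were called, 8.08% up and 8.4% down. In POF males 5 of 6 were called, 3 up and 2 down, beside 25.2% of all genes, 13.6% up and 11.6% down. In PoX females it was 1 of 3, downward (19.4% of all genes), and in PoX males 3 of 3, 1 up and 2 down (20.9% of all genes, 11.5% up and 9.4% down). In Zhr females 3 of 6 were called, all up (41.1% of all genes, 20.3% up), and in Zhr males 4 of 6, 3 up and 1 down (22.9% of all genes, 12.6% up and 10.4% down). Cp18 and Cp19 were among those called in Zhr females, and were high in replicates 1 and 3, as Cp15 was. Without these libraries, a choice made after seeing the data, 2 neighbours were called, and Cp18 was at 0.12 (adjusted p of 0.915, edgeR). The share of all genes called in that fit is not given here. Some of these genes were counted in more than 1 stock, the stocks share Oregon-R, and genes of a row are not independent. With all tested genes within 10000 bp the counts were 7 of 14, 7 of 15, 0 of 5, 2 of 6, 9 of 16 and 6 of 15 in the same order, and 2 of those 5 in PoX females had an unadjusted p below 0.05 in edgeR. Those called with 1 sign in both sexes were CG8562 and Ack upward and CG8563 and Fkbp12 downward in POF, CG43149 downward in PoX, and CG8562 upward in Zhr. Medians of the neighbours' log2 changes were -0.02 and 0.11 in POF, -0.24 and -0.68 in PoX and 0.96 and 0.20 in Zhr, for females and males, beside medians of all genes between -0.01 and 0.02. The Zhr-female median includes Cp18 and Cp19.

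**Figure D5:**
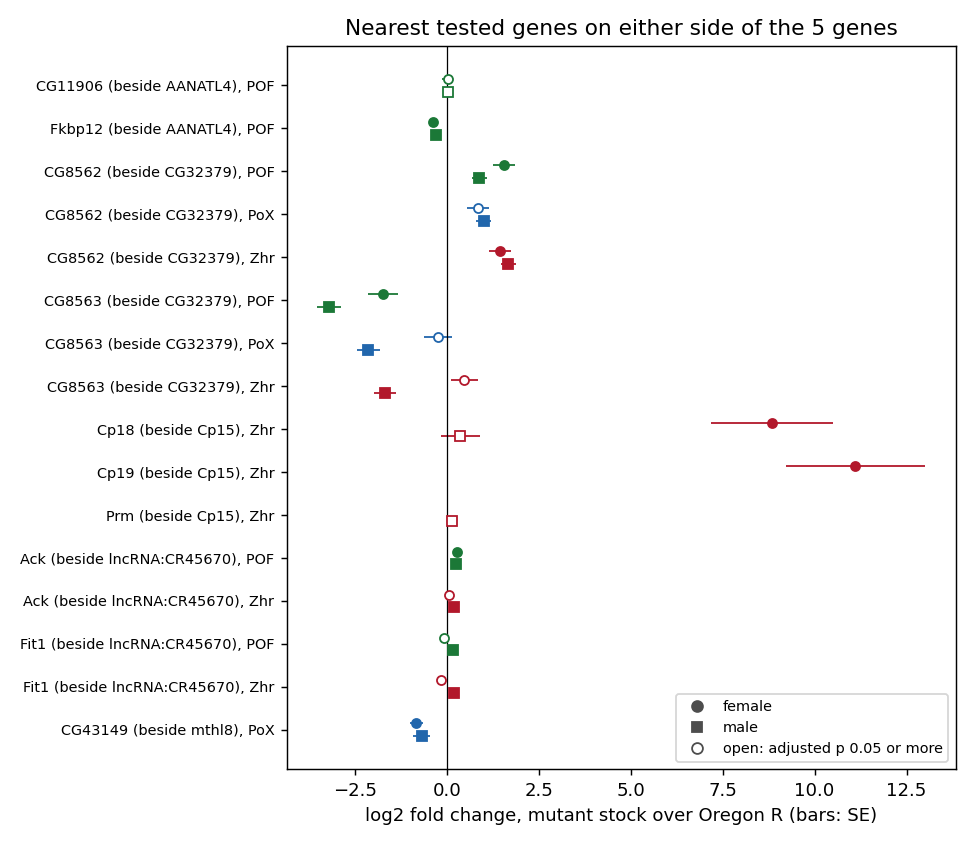
log2 fold change of the nearest tested genes beside the members, mutant stock over Oregon-R, with SE (circles, females, squares, males, filled where the adjusted p was below 0.05). CG8562 was to the right of 0 in each of 6 comparisons, CG8563 was to the left in males, and Cp18 and Cp19 in Zhr females stood far to the right with wide errors.

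Repeats near the members were counted beside those near all genes. A repeat lay within 5000 bp of 2 of the 5 genes, mthl8 and AANATL4. The same held for 54.6% of the 14547 genes on 2L, 2R, 3L and 3R, so the members were near the share of all genes. No member overlapped a repeat interval.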

How the data were processed

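The authors deposited counts per gene and per repeat name, made with Trimmomatic 0.36, STAR 2.5.4b and featureCounts 1.6.3 in its paired mode, without strand. SortMeRNA removed ribosomal reads, and RepeatMasker gave the repeats. Pairs that align to several places were left out of the gene table and kept in the repeat table. Low counts were mostly even: of values from 1 to 10, 66.0 to 73.8% were even in a library, the cause was not tested, and counting intervals may be too narrow. A table of satellite blocks was not used here. Of 17490 gene IDs, 17288 matched the annotation of the same assembly and 203 had no symbol.

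CPM used column totals. Females and males were fitted apart (16 libraries each), the sexes of a stock together (8 libraries), with TMM, filterByExpr and edgeR 4.0.16 (R 4.3.3, quasi-likelihood F tests, two-sided), adjusted after Benjamini and Hochberg over all genes tested, threshold 0.05. SE is the absolute log2 change divided by the square root of F. Exact permutation tests used Python 3.11.15 and scipy 1.17.1. Members, lists and tests were chosen with earlier results of these data known. All 5 members were named, and neighbours where both sexes of a stock were called with 1 sign. The 2 genes nearest each limit on either side were named too, and further genes of the clusters after their values were seen. Intervals and floors cover counting error only. Alternatives were DESeq2 1.42.0, column totals, no filter, other sample sets, other limits, a replicate block and 1 library left out. The script was tested on simulated data.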

Additional observations from a re-analysis of the deposited data

Results flagged for a closer look

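Each member was looked at in each group of 4 libraries for a library far from the rest, by the gap to the nearest library as a share of the range, against Dixon's critical value. Of the 32 groups of libraries that were not all at 0, 5 had such a library. The critical value gives about 1 in 20 for normally distributed values. Many of these values come from few counts, and a group with counts in 1 library always passes. The count of 5 therefore cannot be set against that share. Cp15 had 261 CPM in the highest Zhr-female library, replicate 3. AANATL4 had 0.114 CPM in the lowest Zhr-female library, also replicate 3, from 2 counts, and 0.0746 CPM in the highest Oregon-R female library, the 1 of 4 with any count. lncRNA:CR45670 had 2.18 CPM in the highest POF-male library, replicate 3, and CG32379 had 2.14 CPM in the highest PoX-male library, replicate 2. None of the 4 tests of a sex difference between stocks that share a member passed the threshold.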

How the results depend on the processing

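The number of members was 5 with TMM-scaled totals, 3 with a silent limit of 0.05, 10 with one of 0.2, 13 with an active limit of 0.5, 3 with one of 2, 29 when either sex of a stock sufficed, and 2, mthl8 and CG32379, when every library had to pass. With 1 library left out it was 3 to 6. It was 3 without OR-female replicate 3. Cp15 was lost without OR-female replicate 1, 2 or 3, lncRNA:CR45670 without OR-female replicate 3 or 4, and AANATL4 without POF-female replicate 3 or POF-male replicate 1. Genes silent in a stock under limits of 0.05 and 2 were 2 for Oregon-R, 6 for POF, 3 for PoX and 5 for Zhr, and with 1 library left out 3 to 6 for Oregon-R. With column totals alone 1 member was called by sex in POF, 0 shared members between POF and Zhr females, 3 neighbours in POF males and 2 in Zhr males. With the 2 groups alone in the fit, 1 shared member was called between POF and PoX males, 2 neighbours in POF females and 2 in PoX females. DESeq2 called 2 neighbours in PoX females. Without Zhr-female replicates 1 and 3, chosen after seeing the data, 0 shared members were called between POF and Zhr females, and 2 neighbours in Zhr females. Within 10000 bp 7, 0 and 9 neighbours were called in POF, PoX and Zhr females. With 1 library left out, members called by sex ranged from 0 to 1 in POF and in Zhr, shared members called from 0 to 1 between POF and Zhr females and between PoX and Zhr males, and neighbours called from 1 to 2 in PoX females and 2 to 4 in Zhr males. The causes of these changes were not tested.

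Replicate numbers did not pair the samples, as same-numbered libraries correlated weakly and 4 of 24 (mutant and wild type, -0.227 to 0.157) and 4 of 16 (sexes of a stock, -0.0671 to 0.158) correlated best with their own number. With the replicate block 0 members were called by sex in Zhr (Cp15 at 1.93) and 2 neighbours in PoX females. Fit1 lost its call in POF males (adjusted p of 0.0738, edgeR) and passed in Zhr females (0.0475).

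Values near 0 changed sign. With 1 library left out the log2 difference of females over males ranged from -0.59 to 0.23 for AANATL4 and -0.38 to 0.036 for lncRNA:CR45670 in POF, and in Zhr from -0.26 to 0.32 for CG32379 and -0.39 to 0.21 for lncRNA:CR45670. POF over Zhr ranged from -0.22 to 0.39 in females and -0.18 to 0.23 in males for lncRNA:CR45670, and from -0.25 to 0.33 in males for CG32379. CG11906 in POF ranged from -0.088 to 0.115 in females and -0.0493 to 0.0757 in males, and Cp18 in Zhr males from -0.46 to 0.65. Column totals alone gave 0.0315 for lncRNA:CR45670 in Zhr by sex, -0.11 for it in POF over Zhr females, and -0.0838 and -0.0329 for CG11906 in POF females and males. In Zhr by sex CG32379 was at -0.0495 in 1 fit of all 32 libraries and at -0.12 without Zhr-female replicates 1 and 3, where Cp15 was at -3.83.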
